A study of Bos taurus with 9 samples.

Results

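Blood cell miRNA were examined in extracellular vesicles (EVs) of bovine ovarian follicular fluid. The rule took the loci that the authors named miR-142, miR-144, miR-150, miR-155, miR-223, miR-451 or miR-486, with either arm, in their list of known and homologous miRNA. It found 5 loci, for 5 of the 7 names. The list holds 244 other loci, and these with the 5 form the miRNA set. The table of the whole series has 101889 loci. The 5 loci are bta-miR-142-5p, bta-miR-150 and bta-miR-155, taken here as white cell miRNA, and bta-miR-451 and bta-miR-486, taken as red cell miRNA. The names miR-223 (a white cell and platelet miRNA) and miR-144 (the neighbour of miR-451) were not in the list and are not analysed here.

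Small RNA of EVs was sequenced from 9 pools of follicular fluid. There were 3 pools of small (3 to 5 mm), 3 of medium (6 to 9 mm) and 3 of large (over 9 mm) antral follicles, and a pool is named here by its size and the number in its label, such as Small 1 or Large 12. Ovaries came from an abattoir, and each pool mixed fluid of healthy and atretic follicles. Fluid of small follicles was drawn with a finer needle and another syringe than that of medium and large ones, so for blood cell miRNA a difference between small and larger follicles cannot be told apart from one of aspiration. The study describes 3 collections but the sources used here do not tie a sample to a collection, so the spread within a size holds any difference between collections.

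MicroRNA are short RNA that guide repressor complexes to messenger RNA by a seed near the 5′ end. In mammals, miR-142 is made throughout the blood lineages. Mature lymphocytes are rich in miR-150, and miR-155 is induced when lymphocytes and macrophages are activated. The red lineage accumulates miR-451, which is cut by AGO2 without Dicer, and miR-486, which lies within the ankyrin gene ANK1. Granulosa cells line the follicle, and an intact follicle wall keeps blood vessels in the theca, outside the basement membrane. In RNA of pooled vesicles, a change in how many vesicles a cell type contributes and a change in the miRNA carried per vesicle cannot be told apart.

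Counts on all loci summed to between 8941598 and 14664460 per sample, and those on the loci of the miRNA set to between 146617 and 3394554. That was 21.4% ± 6.59 (SD, n = 3) of a small, 6.28% ± 4.27 (SD, n = 3) of a medium and 2.89% ± 2.39 (SD, n = 3) of a large follicle sample. Levels are therefore given on 2 scales. The normalized count is relative to the miRNA set, on the CPM scale (counts of a sample scaled to a sum of 1000000), after adjustment by TMM (edgeR's trimmed mean of M-values). The other scale is CPM relative to all deposited loci. The 5 loci are from 22 to 24 bases long, and levels were not divided by length. The quasi-likelihood test of edgeR compared the sizes in a single fit of the 9 samples, with the false discovery rate (FDR) taken over the whole miRNA set and a threshold of 0.05. Standard errors (SE) and 95% intervals are those of that fit.

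Relative to the miRNA set, 3 of the 5 blood cell loci rose in large follicle EVs and none fell. The rises were 51.1-fold for miR-150, 9.76-fold for miR-486 and 4.75-fold for miR-142-5p in large versus small follicles. Leaving out 1 sample moved the log2 fold change of miR-150 from 5.68 to 4.64 (without Large 12) and that of miR-486 from 3.29 to 4.71 (without Small 2). Both white and red cell miRNA were among those that rose. Of these, miR-150 entered the miRNA set through its mean count in large follicles alone. Calls in either direction were made at 42.2% of the miRNA set, calls of a rise at 17.7% and calls of a fall at 24.5%. The same 3 loci were also higher in large than in medium follicle EVs, where 10.4% of the set was called and 5.62% was called higher. In medium versus small follicles, 0 of the 5 loci passed and 0% of the set did. At an unadjusted p under 0.05, 44 loci of the set would pass in that comparison, with 1 of the 5, miR-150, among them. Exact tests in edgeR called 8 loci of the set higher and 8 lower there, and DESeq2 called 19 higher and 9 lower, and neither called any of the 5.

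**Figure D1:**
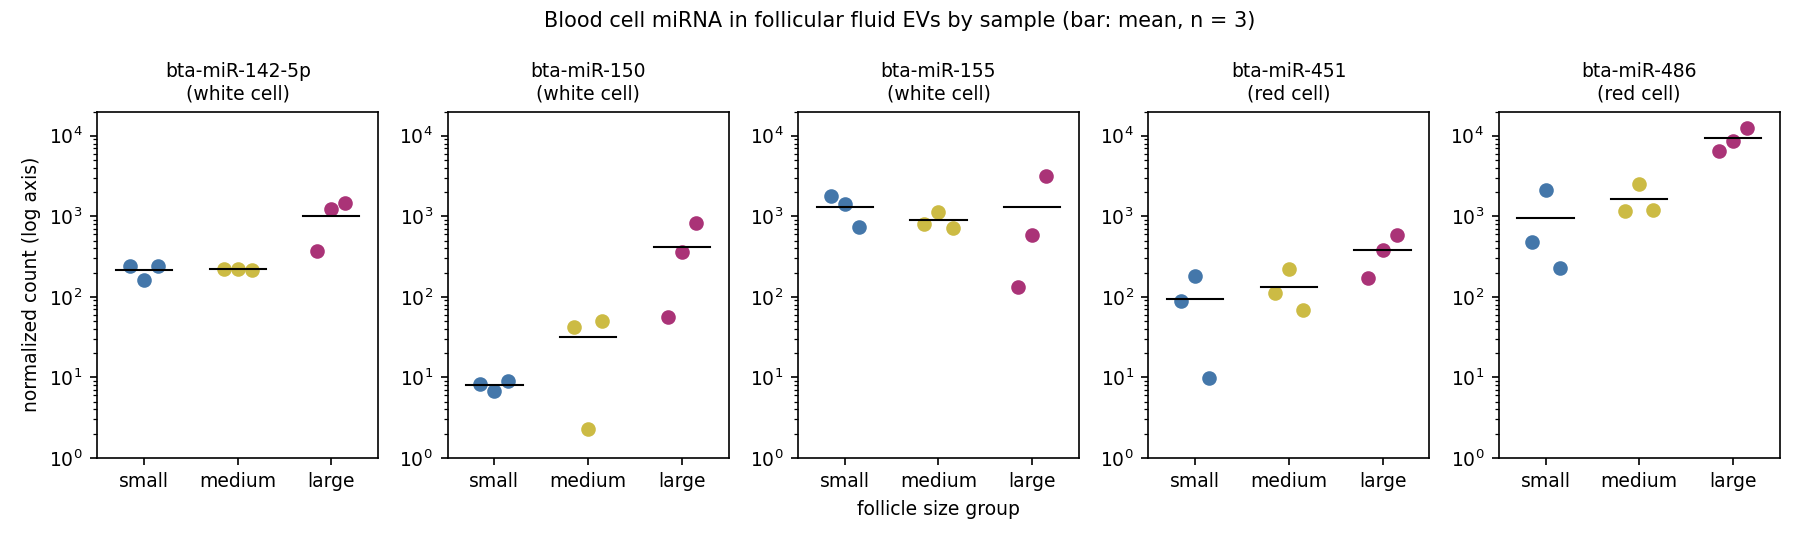
Normalized count of each blood cell locus (vertical log axis, CPM relative to the miRNA set) in each sample, by follicle size. Points are samples, in the order of their labels from left to right within a size, and bars are means of 3. The large follicle samples lie above all others for miR-142-5p, miR-150 and miR-486, and overlap them for miR-155 and miR-451.

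The white cell loci did not share a pattern. The bta-miR-142-5p locus spans 22 bases (UMD3.1 chromosome 19, 9527357 to 9527378, minus strand). Its counts were 776, 191 and 666 in Small 1, 2 and 4, 121, 98 and 255 in Medium 5, 6 and 8, and 66, 175 and 816 in Large 10, 11 and 12. The normalized counts were 239, 163 and 242 in small, 222, 223 and 215 in medium, and 368, 1243 and 1443 in large follicle EVs. Small and medium samples overlapped, the medium samples had a coefficient of variation of 2.04%, and all large samples were above both. Large follicle EVs were higher than small by a log2 fold change of 2.25 (SE 0.46, quasi-likelihood FDR = 0.00374) and higher than medium by 2.21 (SE 0.47, quasi-likelihood FDR = 0.0297). The value for medium against small was 0.03 (interval −0.94 to 1.00).

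The bta-miR-150 locus (chromosome 18, 56407900 to 56407922, minus strand, 23 bases) held the fewest counts of the 5, with 673 in all. Counts were 27, 8 and 25 in small, 23, 1 and 59 in medium, and 10, 51 and 469 in large follicle EVs. The normalized counts were 8.30, 6.81 and 9.10 in small, 42.2, 2.28 and 49.7 in medium, and 55.8, 362 and 830 in large follicle EVs. Small samples were close to each other and below every large sample, whereas Medium 6 lay below all small samples and the other medium samples above them. The exact Poisson interval of Medium 6, with its 1 count, was 0.0577 to 12.7 on the normalized scale, and it spans the small samples. That of Large 10, with 10 counts, was 26.7 to 103. These intervals cover counting error only, since PCR copies are not independent molecules.

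By mean normalized count, miR-150 was the lowest locus of the set in small follicle EVs and rank 240 in medium, and it reached rank 125 in large. From small to large follicles its log2 fold change, 5.68, was the highest of the set (SE 0.99, quasi-likelihood FDR = 0.00132). From medium to large it was 3.69 (SE 0.91, quasi-likelihood FDR = 0.0415), again rank 1. The value from small to medium, 1.99, did not pass (interval 0.04 to 3.94, quasi-likelihood FDR = 0.273).

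The bta-miR-155 locus (chromosome 1, 10227314 to 10227337, minus strand, 24 bases) had the most white cell counts, 13247 in all. Counts were 5855, 1665 and 2050 in small, 434, 503 and 859 in medium, and 24, 83 and 1774 in large follicle EVs. Its normalized counts were 1801, 1418 and 746 in small, 796, 1146 and 724 in medium, and 134, 590 and 3138 in large follicle EVs. The large samples spanned the others on both sides, with Large 10 and 11 lowest and Large 12 highest of all 9. From small to large follicles the log2 fold change was −0.02 (interval −1.72 to 1.67, quasi-likelihood FDR = 0.988), an interval that leaves room for changes in either direction. Without Large 12 it was −1.88 (quasi-likelihood FDR = 0.0225), so this 1 library decided whether miR-155 was called lower. The values were 0.55 for large against medium (interval −1.15 to 2.25) and −0.57 for medium against small follicles (interval −2.27 to 1.13).

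Of the red cell loci, miR-486 rose and the less abundant miR-451 did not pass. The bta-miR-486 locus (chromosome 27, 36261888 to 36261910, minus strand, 23 bases) held 17375 counts, the most of the 5 loci. Counts were 1558, 2512 and 630 in small, 635, 1092 and 1424 in medium, and 1174, 1203 and 7147 in large follicle EVs. The normalized counts were 479, 2140 and 229 in small, 1164, 2488 and 1200 in medium, and 6547, 8547 and 12641 in large follicle EVs. Small samples spread over a wide range that took in the lower medium samples, and the large samples were all above both. Large follicle EVs were higher than small by a log2 fold change of 3.29 (SE 0.73, quasi-likelihood FDR = 0.00548) and higher than medium by 2.52 (SE 0.70, quasi-likelihood FDR = 0.0446). The value for medium against small was 0.77 (interval −0.69 to 2.23). By mean normalized count, miR-486 went from rank 92 of the set in small and 70 in medium to rank 33 in large follicle EVs.

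The bta-miR-451 locus (chromosome 19, 20796893 to 20796915, minus strand, 23 bases) held 1182 counts. They were 286, 215 and 27 in small, 61, 96 and 82 in medium, and 31, 53 and 331 in large follicle EVs. The normalized counts were 87.9, 183 and 9.82 in small, 112, 219 and 69.1 in medium, and 173, 377 and 585 in large follicle EVs. Large 10 lay below Small 2 and Medium 6, so the sizes overlapped. From small to large follicles the log2 fold change was 2.04 (interval 0.26 to 3.82, quasi-likelihood FDR = 0.0623). It passed without Small 2, at 2.96 (quasi-likelihood FDR = 0.0291), or Large 10, at 2.38 (quasi-likelihood FDR = 0.0483), and under edgeR's exact test (FDR = 0.0372) and DESeq2 (adjusted p = 0.0125). From medium to large it was 1.53 (interval −0.24 to 3.30), and from small to medium 0.51 (interval −1.23 to 2.24).

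**Figure D2:**
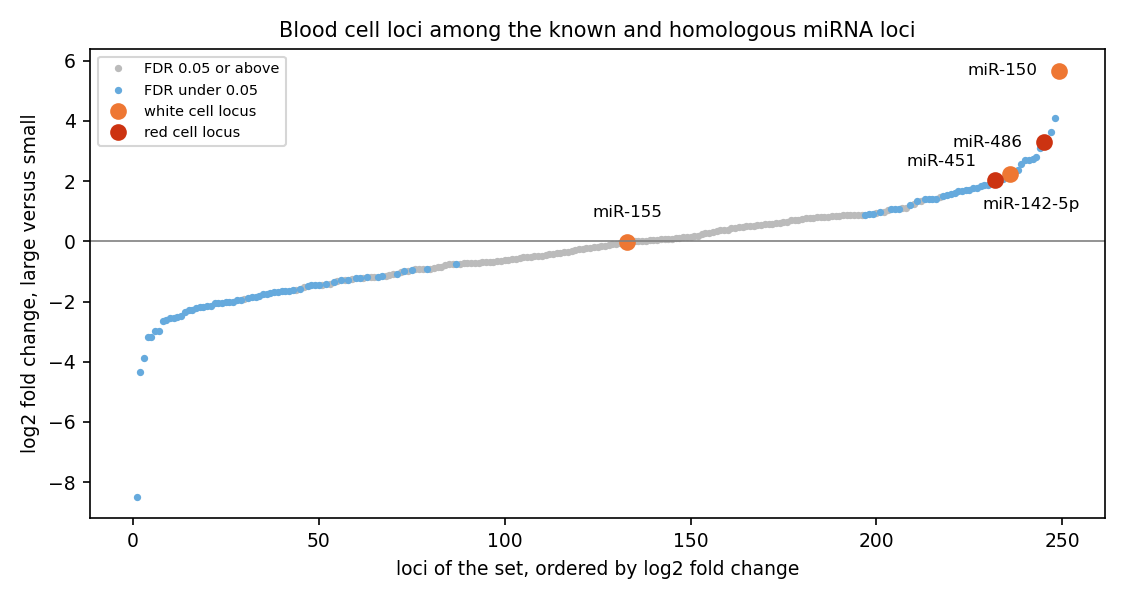
Log2 fold change in large versus small follicle EVs of each locus of the miRNA set (vertical axis), in increasing order (horizontal axis), with loci at an FDR under 0.05 in blue and the blood cell loci as large points. The blood cell loci lie at ranks 1, 5, 14, 18 and 117 from the highest value. The lowest point is a locus with no counts in large follicle EVs, whose fitted value is not a measured size.

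Set against the whole miRNA set, whose median log2 fold change from small to large follicles was −0.18, the median was 2.25 over the 3 white cell loci and 2.66 over the 2 red cell loci. The normalized counts of the large and small samples did not overlap at 3 of the 5 loci, compared with 53% of the set. Large and medium samples did not overlap at the same 3 loci, compared with 36.1% of the set. Medium and small samples overlapped at all 5 loci, and did not overlap at 28.5% of the set. Large 12 had the highest normalized count of the 9 samples at each of the 5 loci, and Large 10 the lowest of the large samples at each. Large 12 also had 660594 counts on the miRNA set, against 154101 in Large 10 and 146617 in Large 11. With each sample left out in turn, the 3 calls in large versus small follicles passed in all 9 fits. That holds each fit without a small or large sample, while leaving out a medium sample barely moved the log2 fold changes.

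The large versus medium calls were less stable. They held for miR-142-5p in 6 of 9 fits that left out a sample, for miR-150 in 4 and for miR-486 in 2. The fits without Small 2 or Small 4, samples outside this comparison, were among those of each locus. For miR-486 they were the only ones, so leaving out any medium or large sample lost its call. Without Medium 5, Medium 6 or Large 11, none of the 5 loci passed, and no locus of the whole miRNA set did. Without Large 12 or Small 1, miR-142-5p alone of the 5 passed, and miR-150 was at 2.64 without Large 12. In the set, 6 loci were called higher and 15 lower without Large 12, and 3 higher and 2 lower without Small 1. Without Medium 8 or Large 10 miR-486 was lost (quasi-likelihood FDR = 0.0769 and 0.054).

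Relative to all deposited loci, the rises of miR-486 and miR-142-5p no longer passed. On this scale the median of the miRNA set was itself −3.06 in large versus small follicles. A fall was called at 76.7% of the set and a rise at 0.402%, which is 1 locus, miR-150. Its CPM values were 1.84, 0.895 and 2.46 in small, 1.91, 0.0856 and 5.54 in medium, and 1.03, 4.99 and 40.1 in large follicle EVs. Large 12 stood far above the other samples, and Large 10 lay within the small range. The log2 fold change of miR-150 was 3.14 (interval 0.37 to 5.91, quasi-likelihood FDR = 0.0392). Without Large 12 it was 0.79 (quasi-likelihood FDR = 0.433), and it passed in 4 of the 9 fits that left out a sample.

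None of the other 4 loci was called in either direction when counts were scaled to the total of all deposited loci. For miR-486, CPM values were 106, 281 and 61.9 in small, 52.6, 93.5 and 134 in medium, and 121, 118 and 611 in large follicle EVs. Large 10 and 11 lay within the range of the small samples, and Large 12 above it. The log2 fold change of miR-486 was 0.92 (interval −0.80 to 2.64). Those of miR-451 and miR-142-5p were −0.33 (interval −2.35 to 1.68) and −0.58 (interval −2.46 to 1.31). Without Large 12, miR-142-5p passed as lower, at −1.96 (quasi-likelihood FDR = 0.0318). For miR-155, CPM values were 399, 186 and 201 in small, 36.0, 43.0 and 80.7 in medium, and 2.46, 8.11 and 152 in large follicle EVs. Every small sample was above every medium and large sample, and the share of the set with such a separation on this scale is not given here. The log2 fold change of miR-155 was −2.28 (interval −4.64 to 0.09, quasi-likelihood FDR = 0.0716), and without Large 12 it was −5.63 (quasi-likelihood FDR = 9.77e-06). The median of the set was −3.06, and −4.03 without Large 12.

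Scaling by TMM over all deposited loci moved the median of the miRNA set to −4.73 in large versus small follicles, with a fall called at 93.2% of the set. The log2 fold change of miR-150 was then 1.56 and did not pass (quasi-likelihood FDR = 0.23). The 1 blood cell locus called was miR-155, which fell from small to large follicles, at −3.78 (quasi-likelihood FDR = 0.00443). It was also called lower in medium than in small, at −3.39 (quasi-likelihood FDR = 0.0365), where a fall was called at 52.6% of the set.

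**Figure D3:**
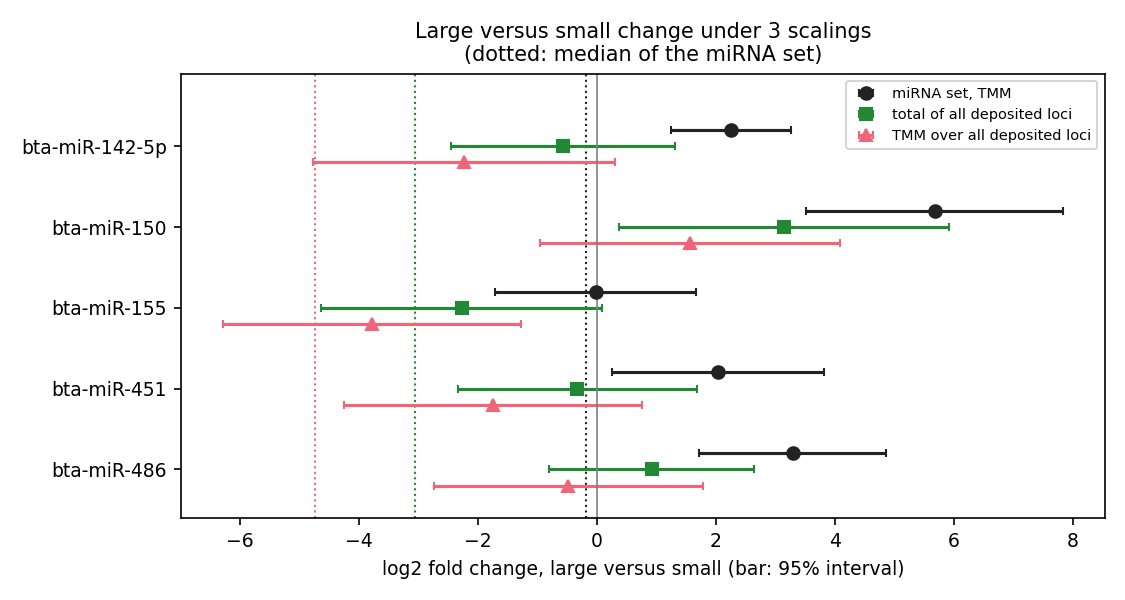
Log2 fold change of each blood cell locus in large versus small follicle EVs (horizontal axis, with 95% intervals) under 3 scalings, with the median of the miRNA set under each as a dotted line. Relative to the miRNA set, miR-142-5p, miR-150, miR-451 and miR-486 lie above 0 and miR-155 at −0.02, and relative to the total of all deposited loci miR-150 alone has an interval above 0 (3.14). With TMM over all deposited loci miR-155 alone has an interval apart from 0 (−3.78).

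Together the 5 loci made up 0.247% ± 0.120 (SD, n = 3) of a small, 0.302% ± 0.0957 (SD, n = 3) of a medium and 1.17% ± 0.385 (SD, n = 3) of a large follicle sample's miRNA set counts. Of the counts on all deposited loci they made up 0.0476% ± 0.0127 (SD, n = 3), 0.0170% ± 0.00746 (SD, n = 3) and 0.0396% ± 0.0438 (SD, n = 3). The first share was higher in every large sample than in any other, and the second overlapped between small and large samples.

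Ratios of counts within a sample do not depend on the scaling, and they are given as log2 values with no test. The summed white cell count over the summed red cell count was 1.85, −0.55 and 2.06 in small, −0.27, −0.98 and −0.36 in medium, and −3.59, −2.02 and −1.29 in large follicle EVs. All large samples were below all others, and the small and medium samples overlapped. Of the counts on the 5 loci, white cell loci held 66.5% ± 22.5 (SD, n = 3) for small, 40.9% ± 6.37 (SD, n = 3) for medium and 18.8% ± 10.7 (SD, n = 3) for large follicles.

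These sums rest on miR-155 and miR-486, which made up 84.0% of the white and 90.8% of the red cell counts in small follicle EVs on average. With miR-155 left out of the sum, an alternative added after the data were seen, the white to red ratio overlapped between all sizes, averaging −1.63 ± 1.96 (SD, n = 3) for small, −2.71 ± 0.76 (SD, n = 3) for medium and −3.00 ± 0.85 (SD, n = 3) for large follicles. The ratio of miR-142-5p to miR-451 also overlapped, at 1.96 ± 2.44 (SD, n = 3), 0.88 ± 0.81 (SD, n = 3) and 1.37 ± 0.32 (SD, n = 3).

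**Figure D4:**
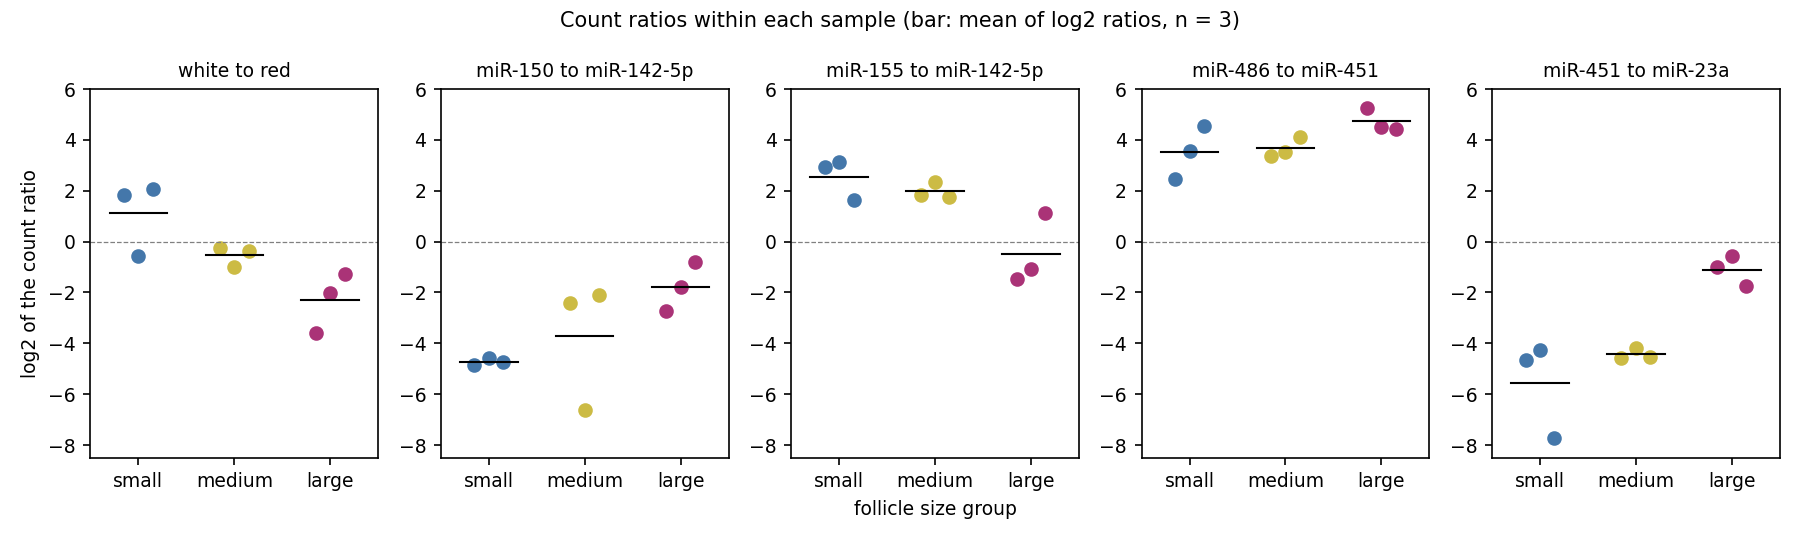
Log2 ratio of counts within each sample (vertical axis) for 5 pairs, by follicle size, with points for samples in label order and bars for the mean of 3. The large samples lie apart from all others for the white to red ratio, the ratio of miR-155 to miR-142-5p and that of miR-451 to miR-23a, and overlap them for the ratios of miR-150 to miR-142-5p and of miR-486 to miR-451.

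Among the white cell loci, the balance differed with size. The log2 ratio of miR-150 to miR-142-5p was −4.85, −4.58 and −4.74 in small, −2.40, −6.61 and −2.11 in medium, and −2.72, −1.78 and −0.80 in large follicle EVs. Small samples were nearly equal and all below the large samples, and Medium 6 was the lowest of all, with its 1 count of miR-150. The ratio of miR-155 to miR-142-5p ran the other way, with 2.92, 3.12 and 1.62 in small, 1.84, 2.36 and 1.75 in medium, and −1.46, −1.08 and 1.12 in large follicle EVs. All large samples lay below all others.

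The red cell loci varied together across samples. Small 4 had the fewest and Small 2 the most of both miR-451 and miR-486 among small samples on the normalized scale. Medium 6 had the most of both among medium samples, as it did of miR-142-5p and miR-155. Large 10, 11 and 12 came in the same order for both, an order that all 5 loci shared. Medium 5 and 8 came in opposite order, at 112 and 69.1 for miR-451 and 1164 and 1200 for miR-486. The log2 ratio of miR-486 to miR-451 averaged 3.51 ± 1.05 (SD, n = 3) for small, 3.67 ± 0.39 (SD, n = 3) for medium and 4.73 ± 0.45 (SD, n = 3) for large follicles, and the small samples overlapped the large ones.

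Likeness of pattern was measured as the root mean square difference of log2 normalized counts over the 9 samples, each locus centred on its own mean. The 9 points share the 3 sizes and their library depths. Of the other 248 loci, the nearest to miR-451 was miR-486, at 0.78, and the nearest to miR-486 was miR-451. The median of the other loci was 1.75 from miR-451 and 2.01 from miR-486. Next to miR-451 were ssc-miR-1285 (chromosome 10, 0.92) and bta-miR-182 (1.03), and next to miR-486 were bta-miR-204 (0.85) and ssc-miR-1285 (1.01).

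The white cell loci were nearer to other miRNA than to one another. This measure also grows with the size of a locus's changes. The median of the other loci was 1.31 from miR-142-5p, 2.70 from miR-150 and 1.34 from miR-155. Both miR-142-5p and miR-150 rose in large follicle EVs relative to the miRNA set. Nearest to miR-142-5p were efu-miR-181f (0.44), bta-miR-125b of chromosome 15 (0.52) and bta-miR-1468 (0.55), with miR-150 at place 181 and miR-155 at place 162. Nearest to miR-150 were bta-miR-92b (1.43), bta-miR-132 (1.55) and bta-miR-328 (1.62), and miR-142-5p was at place 8 (1.69). Nearest to miR-155 were bta-miR-214 (0.77), bta-miR-21-5p (0.79) and bta-miR-107 (0.79), and miR-150 was at place 248, the farthest of all.

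The ratio of miR-451 to miR-23a is used in plasma as a measure of red cell lysis, because miR-23a is little affected by it. Its log2 value was −4.66, −4.26 and −7.71 in small, −4.56, −4.19 and −4.52 in medium, and −1.0, −0.58 and −1.73 in large follicle EVs. All large samples were above all others, and Small 4 was the lowest. Counts on bta-miR-23a were from 4108 to 7214 in small, 1443 to 1878 in medium and 62 to 1096 in large follicle EVs. Counts on the whole miRNA set were also lower in every large than in every small sample. The miR-23a locus is short (chromosome 7, 12981982 to 12981998), so reads of the near-identical miR-23b could have been counted there. The ratio moves with miR-23a as well as with miR-451. Relative to the miRNA set, neither passed in large versus small follicles. The log2 fold change was −1.43 for miR-23a (quasi-likelihood FDR = 0.0641) and 2.04 for miR-451 (quasi-likelihood FDR = 0.0623). The part of red cell lysis in the results was not tested.

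Other miRNA of blood and vessel cells were read from lists of names. In large versus small follicles and relative to the miRNA set, 3 of 9 loci of other white cell miRNA were higher and 1 was lower, with a median log2 fold change of 0.79. In the miRNA set, 17.7% were called higher and 24.5% lower. The 3 rises were those of bta-miR-342, at 0.98 (quasi-likelihood FDR = 0.04), and of both bta-miR-181b loci, at 0.89 and 0.90 (quasi-likelihood FDR = 0.0354 and 0.0408). The highest value was that of bta-miR-146a, an inflammatory feedback miRNA, at 1.05, which did not pass (quasi-likelihood FDR = 0.0992), and the fall was that of its relative bta-miR-146b, at −1.67 (quasi-likelihood FDR = 0.0133). Most abundant was bta-miR-181a of chromosome 16, which tunes T cell receptor signalling, at 0.78 (quasi-likelihood FDR = 0.0505). Of 7 loci of other miRNA abundant in red cells, 0 were higher and 2 lower (median −0.50). The highest value was that of bta-miR-92a on chromosome 12, at 0.66 (quasi-likelihood FDR = 0.182), and bta-miR-106b fell the most, at −2.06 (quasi-likelihood FDR = 0.00461). These miRNA are also made by many other cells, and miR-92a, miR-181a, miR-181b and miR-378 have 2 loci each that could share reads. These lists were not refitted without single samples.

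Of 3 vessel and platelet loci, bta-miR-222 rose, with a log2 fold change of 2.38 (quasi-likelihood FDR = 0.00687). Normalized counts of miR-222 were 140 ± 7.79 (SD, n = 3) for small and 719 ± 698 (SD, n = 3) for large follicles. The endothelial bta-miR-126-5p had a value of 1.10 (quasi-likelihood FDR = 0.0698) and bta-miR-221 one of 0.02 (quasi-likelihood FDR = 0.988). Of 5 loci of miRNA known from granulosa cells, 1 rose and 2 fell. The rise was that of bta-miR-132, which gonadotropin induces, at 4.10 (quasi-likelihood FDR = 0.00659), and the falls were those of both bta-miR-378 loci, at −1.27 and −1.19. The normalized count of bta-miR-202, a gonadal miRNA, was 3725 ± 1514 (SD, n = 3) for small and 3534 ± 1007 (SD, n = 3) for large follicles, above the mean of each blood cell locus in small follicles. In large follicle EVs the mean of miR-486, 9245 ± 3106 (SD, n = 3), was above that of miR-202.

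Relative to all deposited loci, all 9 other white cell and all 7 other red cell loci fell in large versus small follicles, where 76.7% of the miRNA set was called lower. None of the vessel and platelet loci was called, and 4 of 5 granulosa loci fell. No locus of these 4 lists rose on this scale.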

How the data were processed

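The authors removed 3′ adapters, mapped reads with BWA 0.7.5a to UMD3.1, built loci from the merged alignments, dropped loci of low mean depth, and deposited raw, unnormalized counts for the dense region of each locus. The assignment of reads with several matches is not given in the sources used here. The counts were used as deposited. Names were taken from the authors' list of known and homologous miRNA loci (the miRNA set). That list holds only loci whose mean count reached a minimum in at least 1 size, so a locus could enter through its highest size. The loci and lists were chosen with earlier results of these data known.

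In R 4.3.3 with edgeR 4.0.16, the miRNA set was normalized by TMM and a two-sided quasi-likelihood test was made in 1 fit of 3 sizes, Benjamini-Hochberg adjusted over the set, with no filter on low counts. Standard errors were derived from the F statistic. The pools are the replicates. The common dispersion was 0.1645. A count of 3 was from 8.84e-05% to 0.00205% of a sample's miRNA counts. On simulated data for large versus small follicles over the whole miRNA set, with 50 loci changed, 5 were called at a log2 change of 1, 47 at 2 and 49 at 3. All loci were simulated with the same dispersion, 0.16, so these counts do not hold for loci with a wider spread. Alternatives were other scalings, edgeR's exact test, DESeq2 1.42.0, a filter, an FDR under 0.1, a fit of the 2 sizes compared, and leaving out each sample. Named loci are the members, the highest, lowest and most abundant of each list, and the 3 loci nearest each member, with 0.5 added before log2. The bta-miR-126-5p, miR-202, miR-342, both miR-181b and both miR-378 loci were named after their values were seen. Python 3.11.15 with matplotlib 3.10.9 drew the figures.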

Additional observations from a re-analysis of the deposited data

Results flagged for a closer look

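A locus outside the authors' miRNA list lies 16 bases from that of bta-miR-142-5p, at 9527316 to 9527340 on the same strand of chromosome 19, on the 3′ side where the other arm of a hairpin would lie. It held 55 counts over the 9 samples. The authors built loci from merged alignments and dropped those of low mean depth, so any locus kept has counts. The counts were 15, 11 and 1 in small, 2, 5 and 5 in medium, and 13, 1 and 2 in large follicle EVs. It was not tested, and no other locus of the table lies within 1000 bases of the 5 blood cell loci.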

How the results depend on the processing

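Of 300 log2 fold changes recomputed for the 5 loci, 236 kept their direction and their side of the FDR threshold. Some could hardly change, since the filter kept every locus and a left-out sample outside a comparison barely moved its value. Leave-outs relative to all deposited loci were judged against the full fit on that scale, and the others against the main fit. Scaling by the total of all deposited loci left 1 locus called from small to large and 0 from medium to large follicles. In the whole set, this scaling called 1 locus higher and 191 lower from small to large, and 0 from medium to large. It turned the large versus small value of miR-142-5p to −0.58 and of miR-451 to −0.33, and the medium versus small value of miR-142-5p to −1.72, of miR-451 to −1.14 and of miR-486 to −0.68. With TMM over all deposited loci the 3 rises from small to large and from medium to large follicles were lost. The calls were then 1 from small to large, 0 from medium to large and 1 from small to medium, both being falls of miR-155. In the whole set, 232, 0 and 131 loci were called lower in these comparisons, and 0 higher. This TMM scaling turned the large versus small values of miR-142-5p, miR-451 and miR-486 to −2.23, −1.75 and −0.48, and the large versus medium value of miR-155 to −0.39. The medium versus small values of miR-142-5p, miR-150, miR-451 and miR-486 became −2.81, −0.37, −2.26 and −1.63. A fit of the 2 sizes compared left 1 call in large versus medium follicles, where 2 loci of the whole set were called higher and 0 lower. Under both scalings over all deposited loci the median of the whole miRNA set also fell, and the cause of the lost and turned values was not tested. The large minus small difference of the log2 white to red ratio, −3.42, became −0.59 for miR-142-5p to miR-451, −1.81 for miR-142-5p to miR-486 and −1.37 without miR-155.

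With each sample left out in turn, from 3 to 4 of the 5 loci were called between small and large follicles. Between medium and large ones it was from 0 to 3. Of the whole miRNA set, the same fits put 28 to 47 loci higher and 35 to 65 lower in large than in small follicles. Against medium follicles they put 0 to 13 higher and 0 to 15 lower, so the calls of the set varied as well. The large versus small value of miR-155 ranged from −1.88 to 0.51 and its large versus medium value from −1.31 to 1.08. The medium versus small value ranged from −0.13 to 0.25 for miR-142-5p and from −0.046 to 1.43 for miR-451. Relative to all deposited loci, the large versus small value ranged from −1.88 to 0.14 for miR-451 and from −0.33 to 1.75 for miR-486. The white to red difference ranged from −4.26 to −2.78, and that of miR-451 to miR-23a, 4.44, from 3.36 to 5.08. No paired analysis was possible because the sizes share no sample numbers. Low counts limit miR-150 most, with 1 count in Medium 6.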
